A study of Mus musculus with 235 samples.

Results

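A set of 8 genes that astrocytes express strongly were followed in 8 regions of the mouse brain: the connexins Gjb6 and Gja1, the water channel Aqp4, and the identity and metabolic genes Glul, Aldh1l1, Aldoc, S100b and Fgfr3. They were picked by symbol, with earlier results of these data known, and are 8 of the 27998 genes in the count table. The study compared the glucocorticoid response of brain regions in adult male C57Bl/6 mice aged 3 months. The 30 animals were split into 15 injected intraperitoneally with the synthetic glucocorticoid dexamethasone (10 mg per kg) and 15 injected with saline, called vehicle below. Brains were perfused and taken 4 h later, and each region was punched from coronal sections, so that 1 animal gave at most 1 library per region. In the labels the hippocampal punches are dCA1, vCA1, dDG and vDG, and the others AMY, PFC, PVN and CER. Every one of the 16 groups held 13 to 15 libraries, made with a kit that counts the 3' ends of messenger RNA with molecular identifiers.

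Astrocytes are joined to each other by gap junctions, channels built mainly of connexin 43, encoded by Gja1, and connexin 30, encoded by Gjb6. Aqp4 encodes the water channel that is concentrated in the astrocyte endfeet around blood vessels. Glul encodes glutamine synthetase, which turns the glutamate that astrocytes take up into glutamine, Aldoc the aldolase isoform of brain glycolysis, and Aldh1l1 an enzyme of folate metabolism. S100b encodes a calcium-binding protein, and Fgfr3 a receptor for fibroblast growth factors.

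The libraries held between 268538 and 1451422 counts each (median 742957). All 8 genes had counts in every library, the lowest being 4 counts of Aldh1l1. Not every punch carried the markers its label would call for. Gabra6, a gene of cerebellar granule cells, and Pcp2, a gene of Purkinje cells, each had 0 counts in 26 of 30 CER libraries. Instead Gabra6 lay between 173 and 339.6 CPM (counts scaled to a common library total with TMM factors) in 4 libraries: vDG vehicle 4, vDG vehicle 15, vDG dexamethasone 13 and vCA1 vehicle 15. Oxt, a peptide gene of PVN neurons, had a median of 200.3 CPM in PVN, and Prox1, a gene of dentate granule cells, a median of 438 CPM in dDG but also 468 CPM in dCA1. Wfs1, a gene of CA1 pyramidal cells, had a median of 33.6 CPM in dCA1, below that of vDG at 67.6 CPM. A further 6 libraries stood apart, with 6 or 7 of the 7 genes other than Gjb6 above their group's median: dCA1 vehicle 4, vCA1 dexamethasone 11, vDG vehicle 5, 13 and 14, and vDG dexamethasone 3. Each had 1 of the 3 lowest totals of its group and an RNA integrity number (RIN) between 3.8 and 5.6.

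The start of the Gjb6 and the Gja1 gene is shown because Gjb6 is the member that passed the test in most regions and Gja1 is its usual partner. Gjb6 (ENSMUSG00000040055) lies on the minus strand at chr14:57123303-57133611 and Gja1 (ENSMUSG00000050953) on the plus strand at chr10:56377300-56390419, as the count table gives them (mm10). The stretches are the 250 bases before the RefSeq start on GRCm38.p6, chr14:57133612-57133861 (minus strand) and chr10:56377050-56377299 (plus strand), 5′ to 3′.
Gjb6: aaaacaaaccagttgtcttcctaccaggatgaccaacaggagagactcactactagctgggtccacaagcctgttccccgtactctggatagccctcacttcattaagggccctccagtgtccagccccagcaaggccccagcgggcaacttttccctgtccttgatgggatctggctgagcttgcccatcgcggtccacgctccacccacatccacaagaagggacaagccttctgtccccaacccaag
Gja1: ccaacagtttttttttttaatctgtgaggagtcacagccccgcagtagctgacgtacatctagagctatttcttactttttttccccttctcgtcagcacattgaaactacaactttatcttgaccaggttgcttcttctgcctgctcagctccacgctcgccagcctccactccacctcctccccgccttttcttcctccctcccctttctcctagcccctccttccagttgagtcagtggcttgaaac
Capitals would mark AGAACA on either strand, the left arm of the glucocorticoid response element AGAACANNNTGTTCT, and there are none. RefSeq windows of 300 bases (250 before and 50 after a start) were found for 7 of the 8 genes, in 9 windows, with none for Aqp4. No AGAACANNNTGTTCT and no AGAACA on either strand occurred in these 9 windows. Of 32851 such windows of all genes, 0.009% held the whole element and 19.0% held AGAACA, which is part of it. An absent match says only that these letters are not in the window.

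Gjb6 was higher after dexamethasone in all 8 regions and passed the test in 7. In bulk tissue, fewer cells of a type and less RNA per cell cannot be told apart, which holds for each level given here. In vCA1 it ranged from 54.9 over a median of 75.4 to 130.0 CPM in 14 vehicle libraries, and from 91.4 over 159 to 259.9 CPM in 15 dexamethasone libraries. The groups overlapped little there: 12 of the 15 dexamethasone libraries lay above every vehicle library. In dCA1 vehicle libraries ran from 52.6 over 98.3 to 143 CPM and dexamethasone libraries from 91.2 over 137 to 234 CPM. In AMY the values were 52.2, 85.8 and 177 CPM (lowest, median, highest) with vehicle, and 97.0, 153 and 228 CPM with dexamethasone. All 15 treated AMY libraries exceeded the vehicle median, and 9 of 15 vehicle libraries lay below every treated one. In CER the vehicle values were 79.4, 114 and 251 CPM and the dexamethasone values 129, 181 and 252 CPM. Both arms reached the same upper end in CER, while 10 of 15 vehicle libraries lay below the lowest treated one.

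PVN had the highest vehicle level of Gjb6, with 122, 156 and 196 CPM, against 146, 200.5 and 261 CPM after dexamethasone. Of the 15 treated PVN libraries, 9 exceeded every vehicle library. PFC ran from 74.0 over 93.7 to 161 CPM with vehicle and from 104 over 135 to 177 CPM with dexamethasone. In vDG the vehicle values were 77.1, 144 and 244 CPM and the treated values 143, 184 and 366 CPM. The groups overlapped widely in PFC and vDG at their upper ends, while 9 and 7 vehicle libraries lay below all treated ones. In dDG vehicle libraries ran from 51.8 over 105 to 162 CPM and treated ones from 91.3 over 130.3 to 212 CPM, with 4 of 15 treated libraries above all vehicle libraries.

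**Figure D1:**
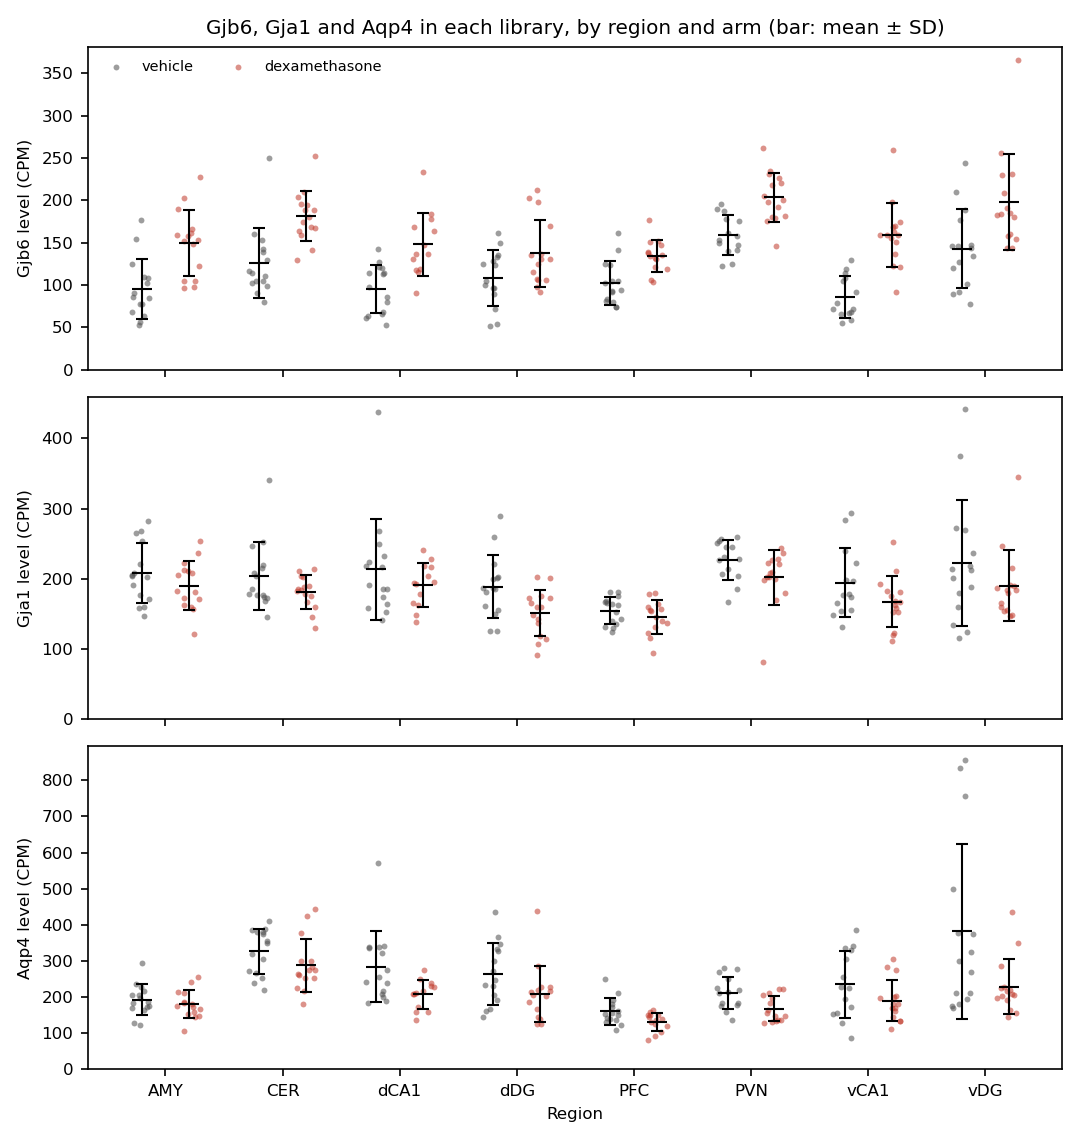
Level of Gjb6, Gja1 and Aqp4 (vertical axes, CPM) in every library of the 8 regions (horizontal axis), grey for vehicle and red for dexamethasone, with black bars for the mean ± SD of 13 to 15 libraries. Gjb6 means lie higher with dexamethasone in each region, while those of Gja1 and Aqp4 lie lower, and 3 vDG vehicle libraries reach 757 to 855 CPM of Aqp4.

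Each region was tested with edgeR's quasi-likelihood fit over all genes, with Benjamini-Hochberg adjustment and a threshold of 0.05. The log2 fold change of Gjb6 was 0.89 ± 0.12 (SE) in vCA1 (adjusted p 1.87e-06), 0.66 ± 0.14 in dCA1 (0.00141) and 0.64 ± 0.15 in AMY (0.0029). It was 0.49 ± 0.12 in CER (0.00319), 0.40 ± 0.10 in PFC (0.00572) and 0.36 ± 0.08 in PVN (0.00182). In vDG it was 0.49 ± 0.14 (0.0388), and in dDG 0.35 ± 0.15 (0.251), which did not pass. The share of all tested genes that passed in either direction was 5.62% in AMY, 6.18% in CER, 4.68% in dCA1 and 3.7% in dDG. It was 6.14% in PFC, 5.63% in PVN, 5.45% in vCA1 and 3.93% in vDG. Vehicle and dexamethasone libraries of the same number shared a plate, and with that number as a replicate block the dDG share was 6.35%. The vDG result lay close to the threshold. Leaving out 1 vDG library at a time, Gjb6 failed the edgeR test in 16 of 30 fits, with adjusted p up to 0.0844 when dexamethasone 3 was left out. The other 15 were dexamethasone 4, 5, 8, 9, 12 and 14 and vehicle 1, 2, 3, 7, 8, 9, 11, 12 and 15. Without the 3 vDG libraries rich in Gabra6 the vDG change was 0.51 (edgeR adjusted p 0.0543). In vCA1, where 2 of 3 tested dentate granule cell genes also rose, the change of Gjb6 was 0.94 (edgeR adjusted p 1.89e-05) once dentate gene level was a covariate.

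The differences between regions in the size of the Gjb6 change did not pass a test of their own. In 1 edgeR fit of all 16 groups, the region-by-treatment term had an F of 1.86 (p 0.0776, adjusted 0.848), against 1.17% of all genes that passed. With the animal as a block, its p was 0.011 and its edgeR adjusted p 0.317. None of the 8 genes passed this test. The rise was also seen within the technical divisions named in the labels. Where a punching date gave 2 or more libraries to both arms of a region, Gjb6 was higher with dexamethasone in 31 of 32 cases, with a median difference of 0.54 in log2 CPM and a lowest of -0.01. Within library plates it was higher in 32 of 32, from 0.08 to 1.34.

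Gja1, the partner connexin, passed in 0 of 8 regions, and its fitted changes were below 0 in all 8. They ran from -0.32 ± 0.11 (SE) in dDG (edgeR adjusted p 0.136) to -0.08 ± 0.08 in PFC (0.788), with a median of -0.16. Its unadjusted p was under 0.05 in 1 region, and DESeq2 called it in 0. With the replicate block Gja1 did pass in dDG (-0.31, edgeR adjusted p 0.0274). In vCA1 Gja1 ran from 132 over 177 to 294 CPM with vehicle and from 111 over 168 to 252 CPM with dexamethasone. In dDG the values were 126, 187 and 289.6 CPM with vehicle and 91.5, 159.6 and 203 CPM with dexamethasone. The 2 arms of Gja1 overlapped over most of their range in both regions.

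**Figure D2:**
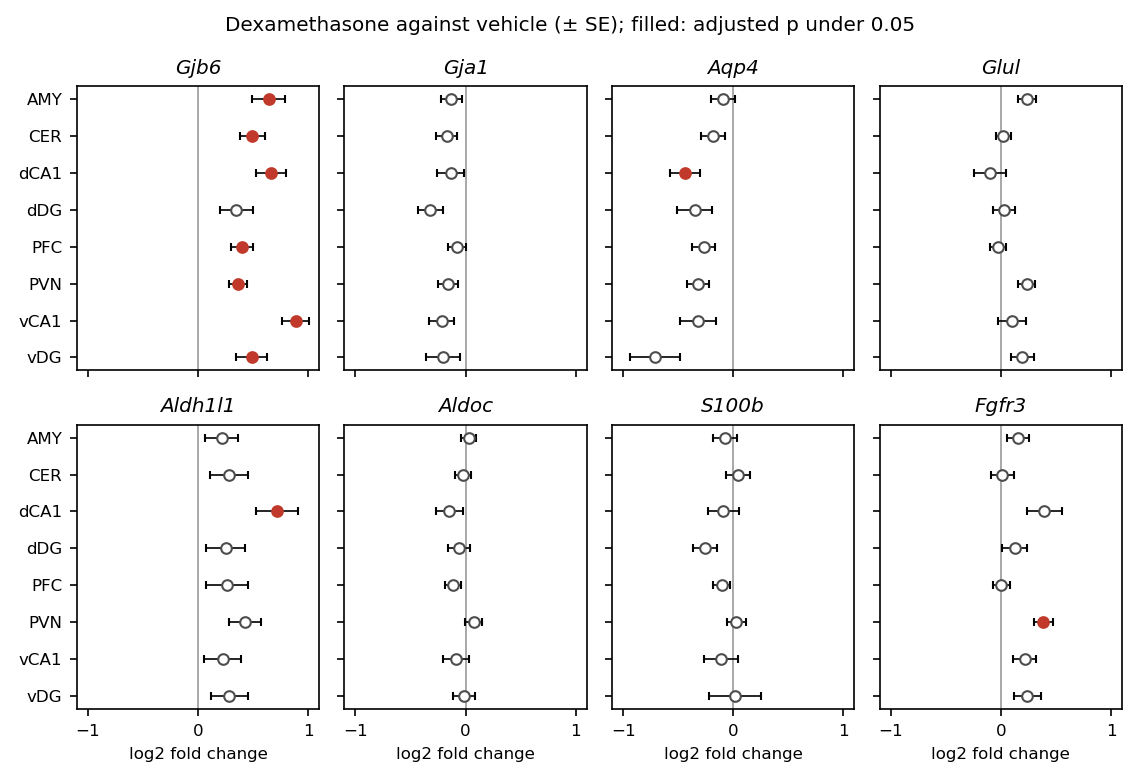
Fitted log2 fold change of dexamethasone against vehicle (horizontal axis, ± SE) for the 8 astrocyte genes in the 8 regions (vertical axis); filled red points passed an adjusted p of 0.05 in edgeR and open points did not. Gjb6 has 7 filled points, Aqp4, Aldh1l1 and Fgfr3 have 1 each, and Gja1, Glul, Aldoc and S100b have none in these fits without the replicate block.

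Whether Gjb6 departed from the other astrocyte genes was tested on the log2 ratio of Gjb6 to each of them within a library. Library scaling enters that ratio only through a prior count of 2, which weighs most on low counts such as those of Aldh1l1. The difference between arms was tested two-sided with 100000 permutations, for 7 genes in 8 regions. Adjustment was by Benjamini-Hochberg over the 56 tests, of which 45 passed. The genes were chosen with earlier results of these data known, so these p-values describe the set and are not independent support. The ratio to Gja1 was higher after dexamethasone in all 8 regions and passed in all 8. In dCA1 it was -1.15 with vehicle and -0.38 with dexamethasone, a difference of 0.76 ± 0.09 (SE). The vehicle libraries of dCA1 ran from -1.79 to -0.71 and the treated ones from -0.59 to -0.04, so that all 13 treated libraries lay above all 15 vehicle libraries. In vCA1 the difference was 1.08 ± 0.12 and 14 of 15 treated libraries lay above every vehicle library. In CER it was 0.70 ± 0.10, again with 14 of 15 above.

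The shift was smallest in PFC, at 0.51 ± 0.09, and PVN, at 0.54 ± 0.13. The PVN value included dexamethasone 4, in which Gja1 was at 81.3 CPM, the lowest of its group. Without that library the PVN difference was 0.43. It was 0.78 ± 0.12 in AMY, 0.66 ± 0.11 in vDG and 0.67 ± 0.13 in dDG. The ratio also passed in dDG (permutation p 2e-05, adjusted 5.6e-05), the region where Gjb6 alone did not. There 5 of 15 treated libraries lay above all vehicle libraries. The fitted change in dDG was 0.35 for Gjb6 and -0.32 for Gja1, so the ratio alone does not tell which gene moved. In 5 regions the permutation p was 1e-05, the smallest that these permutations can give. The largest adjusted permutation p over the 8 regions was 6.22e-05.

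**Figure D3:**
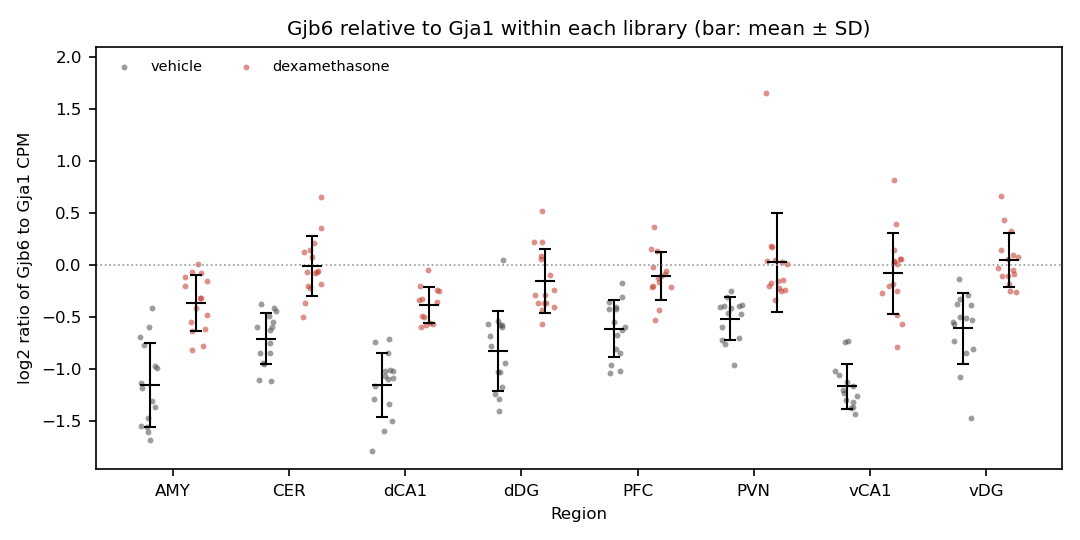
Log2 ratio of Gjb6 to Gja1 CPM (vertical axis) in every library of the 8 regions, grey for vehicle and red for dexamethasone, with black bars for the mean ± SD. Treated libraries lie higher in each region, with no overlap in dCA1, and the highest point at 1.65 is the PVN library with little Gja1.

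The ratio to Aqp4 also passed in 8 of 8 regions, with differences between 0.68 and 1.13. Fitted changes of Gja1 and Aqp4 were below 0 in all 8 regions, so both genes of these ratios contribute to the shift. The ratios to Aldoc and S100b passed in 8 of 8, with 0.28 to 0.98 and 0.34 to 0.96. Against Glul it passed in 7 of 8 regions. The exception was PVN, where Gjb6 and Glul differed by 0.12 ± 0.10 (permutation p adjusted 0.26). Against Fgfr3 it passed in AMY, CER, PFC and vCA1, by 0.39 to 0.65, and in PVN the difference was -0.02 ± 0.10. Against Aldh1l1 it passed in AMY, at 0.45 ± 0.18, and in vCA1, at 0.66 ± 0.17. In the other 6 regions the difference to Aldh1l1 lay between 0.02 and 0.23, with standard errors of 0.14 to 0.21, so that shifts of that size were not resolved. With pairing by replicate number, an exact sign-flip test also passed the ratio to Aldh1l1 in CER (0.23, adjusted p 0.0434) and that to Fgfr3 in vDG (0.25, 0.0334). Thus Gjb6 departed from Gja1, Aqp4, Aldoc and S100b in each region, and from Aldh1l1 and Fgfr3 in some.

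**Figure D4:**
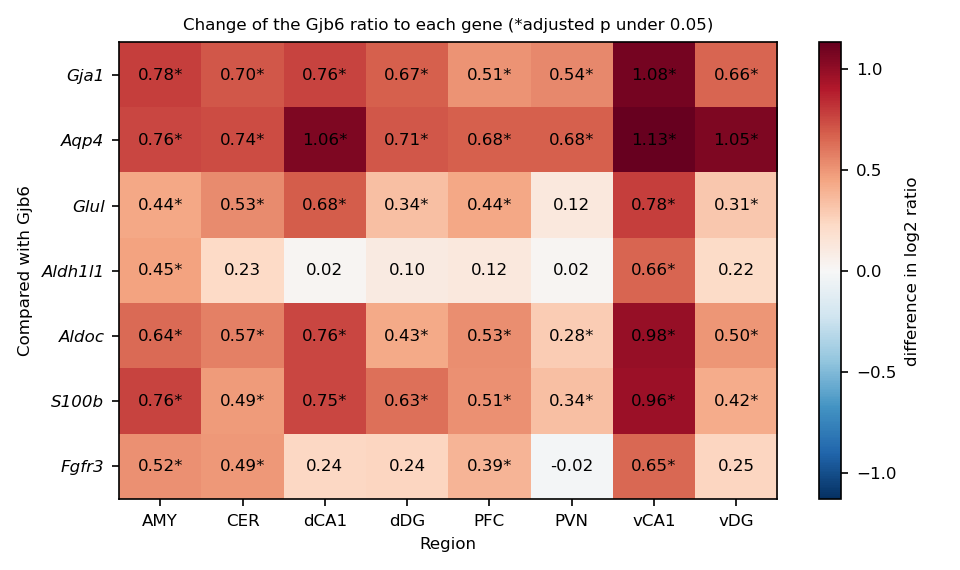
Difference between dexamethasone and vehicle in the log2 ratio of Gjb6 to each of the 7 other genes (rows) in the 8 regions (columns), coloured from blue below 0 to red above 0 and printed in each cell; a star marks an adjusted permutation p under 0.05. The rows of Gja1, Aqp4, Aldoc and S100b are starred throughout, and that of Aldh1l1 in AMY and vCA1.

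Aqp4 (ENSMUSG00000024411, chr18:15389394-15403684, minus strand) had fitted changes below 0 in all 8 regions, from -0.71 to -0.09 with a median of -0.32, and passed in 1. Its unadjusted p was under 0.05 in 5 regions. In dCA1, where it passed, vehicle libraries ran from 183 over 255 to 571 CPM and treated ones from 136 over 212 to 274 CPM. Of 15 vehicle libraries, 7 lay above all treated ones. The change was -0.44 ± 0.13 (SE, edgeR adjusted p 0.0491), close to the threshold. Over 28 edgeR fits that left out 1 dCA1 library it stayed below 0, from -0.47 to -0.33, with adjusted p from 0.0268 to 0.094, and 19 of them lost the call. These were the fits without vehicle 1, 2, 3, 4, 5, 7, 10, 13 or 14 and without dexamethasone 1, 3, 5, 6, 8, 11, 12, 13, 14 or 15. Without vehicle 4, which held the 571 CPM, it was -0.33 (edgeR adjusted p 0.0736), and limma on the authors' values gave -0.29 (adjusted p 0.0785).

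The change of Aqp4 in vDG had the largest size of the 8 and did not pass, at -0.71 ± 0.22 (edgeR adjusted p 0.071). Vehicle libraries there ran from 168 over 299.7 to 855 CPM, and treated ones from 143 over 209 to 434 CPM. The 3 vehicle libraries 5, 13 and 14 held 835, 855 and 757 CPM, and they are among those with low totals and RIN. Without vehicle 5, 13 or 14 in turn the change was -0.59, -0.59 and -0.62 (edgeR adjusted p 0.164, 0.158 and 0.151). The vDG change passed in 6 of 30 fits that left out 1 library, with DESeq2 (-0.73, adjusted p 0.0365) and with date and plate as factors (-0.61, edgeR adjusted p 0.0406). In PVN, Aqp4 was at 135, 212 and 279 CPM with vehicle and 127, 154 and 222 CPM with dexamethasone, a change of -0.32 ± 0.10 (edgeR adjusted p 0.0586). That PVN change did pass with upper-quartile scaling (-0.34, edgeR adjusted p 0.0303), with library totals, with either other filter, with date and plate as factors and with DESeq2. With the replicate block Aqp4 fell in PVN (-0.35, edgeR adjusted p 0.00242) and in PFC (-0.26, 0.0118). Within plates Aqp4 was lower with dexamethasone in 29 of 32 combinations, and within punching dates in 26 of 32.

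For 11 genes that anchor Aqp4 in the endfoot or line that membrane, the median log2 change over 82 tests was -0.07, against -0.01 over all genes tested. Among them, Hepacam, a cell adhesion gene of astrocytes, had changes from -0.34 to 0.04 and no call, but with the replicate block it fell in dDG (-0.35, edgeR adjusted p 0.0152), as 1 of 3 genes of the list that fell in some region in that fit.

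Glul (ENSMUSG00000026473, chr1:153899944-153909723) passed in 0 of 8 regions by edgeR and in 0 by DESeq2, with an unadjusted edgeR p under 0.05 in 2. Its changes ran from -0.10 in dCA1 to 0.24 in AMY. In AMY the vehicle values were 1973, 2486 and 3399 CPM and the treated values 2115, 3037 and 3874 CPM, with 4 of 15 treated libraries above all vehicle ones (0.24 ± 0.08, edgeR adjusted p 0.1). In PVN the values were 1541, 2074 and 3181 CPM against 1951, 2461 and 3044 CPM (0.23 ± 0.08, edgeR adjusted p 0.084). Both passed with date and plate as factors, at edgeR adjusted p of 0.0392 and 0.0412, and with the replicate block, at 0.0195 and 0.021. The dCA1 value changed sign, to 0.04, without vehicle 4, in which Glul was at 7292 CPM. A stretch of 116 exon bases of Glul overlaps Teddm2 on the other strand, a gene with 456 counts in all libraries against 489321 of Glul.

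Of 8 tested genes of the glutamate and glutamine cycle, Slc38a2, which encodes a neutral amino acid transporter, rose in 3 regions (PFC 0.41, dCA1 0.31, vDG 0.79). The other 7 had no call, and the median over 64 tests was -0.07. Slc1a2 and Slc1a3, the glutamate transporters of astrocytes, were among those 7.

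Aldoc (ENSMUSG00000017390, chr11:78322968-78327781) had the narrowest range of changes among the 8 genes, between -0.15 and 0.07, with standard errors of 0.07 to 0.12. It passed in 0 of 8 regions by edgeR and in 0 by DESeq2, with an unadjusted edgeR p under 0.05 in 0. In CER its libraries ran from 1681 over 2079.8 to 2617 CPM with vehicle and from 1696 over 2004 to 2518 CPM with dexamethasone. The arms covered nearly the same range. Other genes of glycolysis and lactate transport did change. Slc2a1, the glucose transporter GLUT1, rose in 8 of 8 regions, from 1.03 to 1.29. Pfkfb3, which makes an activator of glycolysis, rose in 4 of 8 (0.42 to 0.56), although not in vCA1 with the replicate block (0.45, edgeR adjusted p 0.0568). Slc16a1, a monocarboxylate transporter, fell in 6 of 8 (-0.96 to -0.39), although not in dCA1 with that block (-0.49, edgeR adjusted p 0.0517). Of the 10 tested genes of this list 3 rose in some region, 1 fell and 6 had no call, and the median over 67 tests was -0.02.

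Aldh1l1 (ENSMUSG00000030088, chr6:90486427-90600203) was the least deeply counted of the 8, with 4250 counts over all libraries. Its changes were above 0 in 8 of 8 regions, from 0.22 to 0.72, and 1 passed. In dCA1 vehicle libraries ran from 7.68 over 18.8 to 51.9 CPM and treated ones from 15.5 over 29.1 to 45.0 CPM. Of 15 vehicle libraries, 7 lay below all treated ones, and the highest value of all was that of vehicle 4. The change was 0.72 ± 0.19 (edgeR adjusted p 0.0174) and passed in all 28 fits that left out 1 library. In PVN it was 0.43 ± 0.14 (edgeR adjusted p 0.0717), from 16.1, 24.0 and 35.2 CPM to 18.4, 27.9 and 51.9 CPM. It passed there with date and plate as factors (0.42, edgeR adjusted p 0.0444). Exons of Aldh1l1 overlap Gm45901 on the same strand by 105 bases, a gene with 11 counts in all, and Gm15756 on the other strand by 499 bases, which had 0. Of 6 tested folate enzymes, Mthfd2, a mitochondrial enzyme of one-carbon metabolism, rose in 8 of 8 regions, from 0.90 in CER to 2.86 in dCA1, and the other 5 had no call.

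S100b (ENSMUSG00000033208, chr10:76253853-76261159) passed in 0 of 8 regions by edgeR and in 0 by DESeq2, with an unadjusted edgeR p under 0.05 in 1. Its changes ran from -0.25 ± 0.11 in dDG (edgeR adjusted p 0.279) to 0.04 in CER. In dDG it was at 166, 275 and 342 CPM with vehicle and 161, 207 and 337 CPM with dexamethasone, which is nearly the same range with a lower median. Of 5 tested S100 genes, S100a16 fell in 5 of 8 regions (-0.63 to -0.49), and 4 had no call. With the replicate block 2 of the 5 fell in some region.

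Fgfr3 (ENSMUSG00000054252, chr5:33721674-33737068) had changes above 0 in 8 of 8 regions, from 0.01 to 0.39, and passed in PVN. There vehicle libraries ran from 158 over 196 to 296 CPM and treated ones from 197 over 259 to 339 CPM. Of 14 vehicle libraries, 7 lay below all treated ones, and all 15 treated libraries exceeded the vehicle median (0.39 ± 0.09, edgeR adjusted p 0.00248). In dCA1 the change was 0.39 ± 0.16 (edgeR adjusted p 0.207). It was 0.52 (edgeR adjusted p 0.00934) without dCA1 vehicle 4, which at 342 CPM exceeded all other libraries of both arms. With the replicate block it was 0.51 (edgeR adjusted p 0.00253), and it also passed with RIN as a covariate, with date and plate as factors and with limma on the authors' values.

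The other FGF receptors changed in both directions. Fgfr1 rose in 7 of 8 regions, from 0.39 in dDG to 0.74 in PFC. Fgfr2 fell in 6 of 8 (-0.81 to -0.49) and Fgfrl1, a receptor without a kinase domain, in 8 of 8 (-1.04 to -0.59). Spry2, a feedback inhibitor of FGF signalling, fell in 8 of 8 (-0.90 to -0.36). Of the 13 tested genes of the list 3 rose in some region, 5 fell in some and 5 had no call.

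Of 21 other connexins and pannexins listed, 6 were abundant enough to be tested in some region. Their median change was -0.45 over 28 tests. Gjc3, connexin 29, which is known from oligodendrocytes, fell in AMY (-0.51), CER (-0.45), PVN (-0.47) and vCA1 (-0.69) out of 8 regions. Of 9 other oligodendrocyte markers in 72 tests, 1 rose and 1 fell in some region, with a median of -0.13. With the replicate block 2 rose and 2 fell. Per region the median of these markers ran from -0.36 in vCA1 and -0.30 in vDG to -0.02 in PFC. Their summed level had a lower mean with dexamethasone in 6 of 8 regions. The part of this in the change of Gjc3 was not tested.

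Gjb2, connexin 26, and Gjb1, connexin 32, were named after their values were seen. Gjb2 is the neighbour of Gjb6 on chromosome 14, at 57098600 to 57104702 on the same strand, with 18601 bases between them. It passed the filter on low counts in PFC and vDG only, with fitted changes of -1.75 ± 0.25 (SE) and -1.37 ± 0.32. The filter can be met by 1 arm alone, so that for a gene this low a region where the vehicle level is high is more readily tested, and these values are a description. In PFC its mean was 16.7 ± 6.36 CPM (SD, n = 15) with vehicle and 4.93 ± 2.90 CPM (SD, n = 14) with dexamethasone. In dDG, where it was not tested, the means were 21.1 ± 16.4 CPM (SD, n = 15) and 4.00 ± 3.85 CPM (SD, n = 15). There the summed level of 6 choroid plexus markers also had a lower median, at 1311 CPM with vehicle and 282 CPM with dexamethasone. That sum had a lower median in 5 of 8 regions, and its part in the Gjb2 values was not tested. Without the filter Gjb2 passed in 4 of 8 regions, with changes from -2.37 to -0.02. Gjb1 was tested in CER only, where its fitted change was -1.05 ± 0.23, with the same limit of the filter. Of 9 tested genes for connexin partners and turnover, Prkca rose in 3 regions (AMY 0.35, PVN 0.64, dCA1 0.41).

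Among 25 further astrocyte markers, 19 had no call in any region, 2 rose and 4 fell. Sox9, a transcription factor of astrocytes, fell in 8 of 8 regions, from -1.20 in PFC to -0.67 in PVN. Hes5, a target of Notch signalling, fell in 8 of 8 (-1.44 to -0.86), as did Fjx1 (-0.91 to -0.46). Htra1, a secreted protease, rose in 7 of 8, from 0.37 to 0.75, and Ppp1r3c, a glycogen-targeting phosphatase subunit, in 4 of 8, from 0.47 to 1.00. Over the 200 tests of this list 11 rises and 25 falls passed, and the median was -0.08. Of all genes, 3.7 to 6.18% passed per region. Counts of listed genes called in some region, here and for the other lists, span several tests per gene and do not compare with those shares. Of 8 tested genes linked to reactive astrocytes, 2 rose and 6 had no call. These were Cp, which encodes ceruloplasmin, in 4 of 8 regions (0.59 to 0.84) and Fkbp5, a glucocorticoid target in many cell types, in 8 of 8 (1.65 to 2.79).

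Markers of other cell types were read beside these results. Neuronal markers had a median change of -0.02 over 64 tests of 8 genes. Microglial markers fell in 16 of 58 tests, from 2 of 8 genes, and their summed median level in CER was 336 CPM with vehicle and 227 CPM with dexamethasone. Endothelial markers fell in 19 of 40 tests, from 3 of 5 tested genes, and their summed median level in CER was 534 CPM and 358 CPM. The sum of 4 astrocyte markers outside the 8 (Slc1a2, Slc1a3, Gfap and Sox9) had a lower mean with dexamethasone in 8 of 8 regions, at 0.837 to 0.947 times the vehicle mean. Its median was lower in 7 of 8, from 3583 to 2936 CPM in CER and from 5749 to 4922 CPM in dCA1, with vCA1 at 5649 and 5656 CPM. The microglial and the endothelial sums were lower in mean and median in 8 of 8 regions. The part of these shifts in the changes of Gjb6 and Aqp4 was not tested.

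In vehicle animals, all 8 genes differed among the regions by edgeR's test with the animal as a block, as did 73.3% of all genes. Gjb6 was highest in PVN, at 159 ± 23.5 CPM (SD, n = 14), followed by vDG, CER, dDG, PFC, AMY, dCA1 and vCA1, the last at 86.2 ± 24.7 CPM (SD, n = 14). No 2 neighbours in this order differed past the threshold, as is meant by differ here, and PVN exceeded vCA1 by 0.92 ± 0.12 on the log2 scale (edgeR adjusted p 4.46e-10). In all, 16 of the 28 pairs of regions differed for Gjb6, against 31.7% of all gene and pair tests. Gja1 was flatter: 6 of 28 pairs differed, each of them a region above PFC, which was lowest at 155 ± 19.5 CPM (SD, n = 15). PVN, the highest, was at 227 ± 28.2 CPM (SD, n = 14), and no 2 neighbours in the order differed.

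S100b varied most, from 965 ± 235.2 CPM (SD, n = 15) in CER to 251 ± 43.1 CPM (SD, n = 15) in PFC, and 21 of 28 pairs differed. CER exceeded AMY, the next in order, by 0.93 ± 0.14 (edgeR adjusted p 1.24e-08), and vCA1 exceeded dCA1 by 0.42 ± 0.14 (0.0176); the other 5 neighbouring pairs did not differ. Between those steps the order was AMY, vDG, PVN and vCA1, and below them dCA1, dDG and PFC. Aldoc was also highest in CER, at 2114 ± 298 CPM, and exceeded vCA1, the next, by 0.44 ± 0.10 (edgeR adjusted p 1.37e-04). It went on through PVN, dCA1, PFC, vDG and AMY to dDG, at 1195 ± 179.6 CPM, with no neighbours that differed and 12 of 28 pairs that did. Fgfr3 ran from CER, at 234 ± 62.6 CPM, through PVN, AMY, vDG, vCA1, PFC and dCA1 to dDG, at 127 ± 28.4 CPM, with 15 of 28 pairs that differed and no neighbours.

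Aqp4 followed another order: vDG, CER, dCA1, dDG, vCA1, PVN, AMY and PFC. It was at 382 ± 244 CPM (SD, n = 15) in vDG, where 3 libraries of low total raised the mean over the median of 299.7 CPM, and at 159.6 ± 36.8 CPM (SD, n = 15) in PFC. For Aqp4, 15 of 28 pairs differed and no neighbours did. Glul was highest in dCA1, at 3443 ± 1309 CPM (SD, n = 15), and lowest in PVN, at 2123 ± 370.0 CPM (SD, n = 14), the region where Gjb6 and Gja1 were highest. Between them lay PFC, CER, vCA1, dDG, vDG and AMY, with 12 of 28 pairs that differed and no neighbours. Aldh1l1 ran from 24.8 ± 10.9 CPM in CER through PFC, PVN, vDG, AMY, vCA1 and dCA1 to 16.9 ± 6.39 CPM in dDG, and 6 of 28 pairs differed, none of them neighbours.

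**Figure D5:**
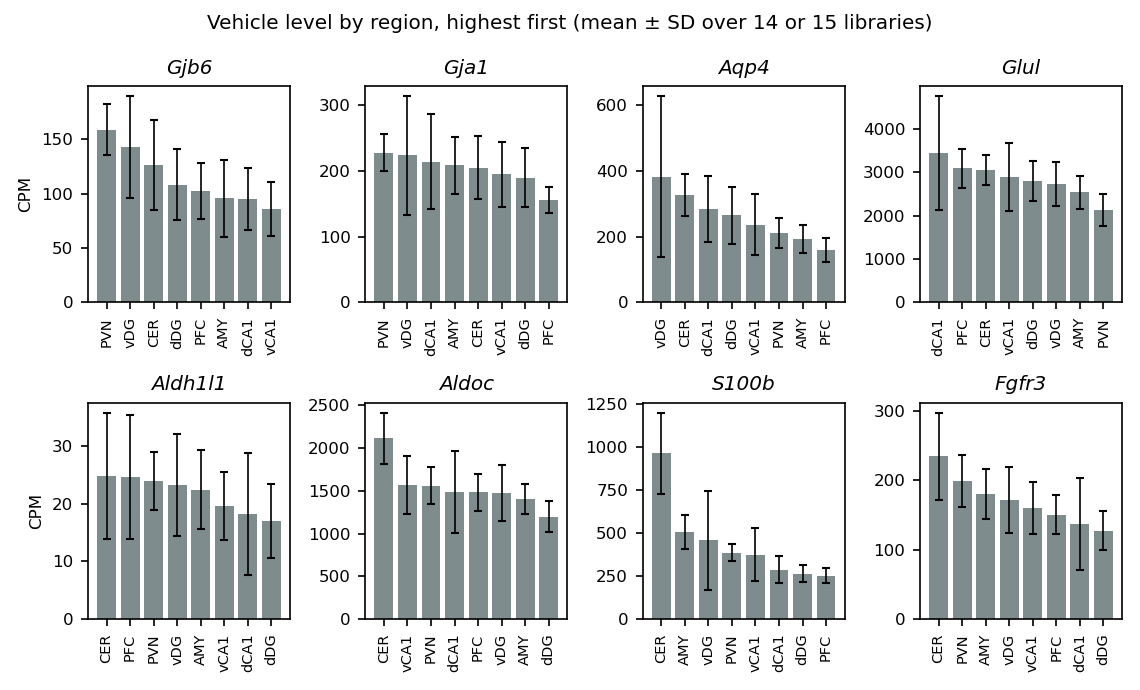
Mean level in vehicle animals (vertical axes, CPM from 0, bars with SD over 14 or 15 libraries) of the 8 astrocyte genes in the 8 regions, ordered from high to low within each panel. CER leads for S100b, Aldoc, Fgfr3 and Aldh1l1, PVN for Gjb6 and Gja1, vDG for Aqp4 and dCA1 for Glul.

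Genes with the pattern most like that of Gjb6 were sought by Pearson correlation over the 16 group means of log2 CPM, among 7924 genes. The 5 nearest were Herpud1 (r = 0.893), Dop1a (0.893), Lfng (0.869), Tent5a (0.868) and Capn2 (0.864). Of the other astrocyte genes, Aldh1l1 ranked 37th (r = 0.781) and Fgfr3 ranked 150th (r = 0.679), while Gja1 had r = -0.006. Over the 8 vehicle means alone, the gene nearest to Fgfr3 was Sparcl1 (r = 0.987), and those nearest to Gja1 and Aqp4 were Ralgps2 (0.983) and Faim (0.969). Pomp was nearest to S100b (0.989), Cadps to Aldoc (0.980), Oxnad1 to Aldh1l1 (0.969) and Atad1 to Glul (0.941). Second to each came Prkra for Fgfr3 (0.985), Zfp687 for Gja1 (0.943), Tars for Aqp4 (0.944), Pphln1 for S100b (0.988), Rab18 for Aldoc (0.970), Snx14 for Aldh1l1 (0.968) and Tom1l2 for Glul (0.938). These correlations are descriptions over 16 or 8 means that share animals, and with so many genes compared, high values arise readily.

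Within a group, the ratio of Gjb6 to Gja1 varied less than the level of Gjb6. The SD of log2 Gjb6 had a median of 0.37 over the 16 groups, and that of its ratio to Gja1 a median of 0.28, smaller in 12 of 16 groups. For Fgfr3 the medians were 0.29 for its level and 0.28 for its ratio to Gja1, smaller in 13 of 16. For S100b they were 0.36 and 0.32, smaller in 11 of 16, and for Aldh1l1 0.42 and 0.40, smaller in 10 of 16. Glul (0.25 and 0.24) and Aldoc (0.21 and 0.23) had a smaller ratio spread in 8 of 16 groups each. For Aqp4 the ratio varied more than the level, with 0.42 against 0.33, and was smaller in 6 of 16 groups.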

How the data were processed

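Messenger RNA of punched tissue was counted in libraries of 30 animals. The deposited counts are raw whole-number counts per gene for 27998 genes in 1 table. Per the submitters' processing notes, FastQC 0.11.4, cutadapt, UMI-tools 0.5.4, STAR 2.6.0a and featureCounts 1.6.4 were used on mm10. The use of strand and the annotation are not given in the sources used here. The authors also deposited variance-stabilised log2 values per region, for 228 libraries, and made with DESeq2 1.30.1 and R 4.0.5 per the same notes; 7 libraries of the count table are absent from them. Those log2 values were used only as an alternative input. Symbols came from GENCODE release 21 for mouse, which named 27645 genes, of which 99.9% overlapped their position there. Counts at the 3' end of transcripts do not scale with gene length. Levels were not compared between genes.

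Groups came from the sample titles. In each region, genes passing filterByExpr were scaled by TMM and tested with edgeR 4.0.16 quasi-likelihood fits in R 4.3.3, adjusted by Benjamini-Hochberg over all genes tested, with a threshold of 0.05. Vehicle levels among regions were tested with the animal as a block, and pairs of regions were adjusted over all genes and 28 pairs together. Ratios used log2 CPM, to which a prior count of 2 was added. Alternatives used DESeq2 1.42.0, limma 3.58.1, other scalings and filters, date and plate, RIN, dentate level and left-out libraries. Leaving out the libraries with Gabra6 above 100 CPM, those absent from the authors' tables, 1 library at a time in dCA1 and vDG, or 1 PVN library, exact sign flips over pairs for the ratios, and limma on the authors' values, were chosen after seeing the data. Tables and figures were made in Python 3.11.15 (pandas 2.3.3, numpy 2.4.6, matplotlib 3.10.9). On simulated counts for AMY, edgeR recovered 60% of genes changed by 0.5 and 97% of those changed by 1 on the log2 scale, over 8611 genes. Promoter windows are RefSeq's on GRCm38.p6.

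The genes and lists were chosen with earlier results of these data known. Named are the 8 genes in all regions, listed genes that passed in at least 4 regions (or, where a list had none, the 2 with the smallest p), and the genes of most similar pattern; some listed genes are not reported here. Library totals set the precision of single values: 3 counts correspond to 2.07 to 11.2 CPM, for counting error only. Libraries of a group come from different animals. Per the labels, same-numbered vehicle and dexamethasone libraries of a region shared a plate in 115 of 115 pairs and a punching date in 109, so the number marks a shared batch. Their deviations from the group means had a median correlation of 0.06 to 0.24 per region, with a lowest pair of -0.16 to 0.04. The fit with the number as a block is an alternative.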

Additional observations from a re-analysis of the deposited data

How the results depend on the processing

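The 8 genes were counted with 4250 (Aldh1l1) to 489321 (Glul) counts in all, and changes near 0.5 were within reach of the test for only part of the genes at this depth. Counting used 3' ends, and strand use is not given. Punch content differed between libraries, and several vDG and CA1 libraries were shallow with low RIN.

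Gjb6 kept its direction in all 8 regions under every alternative run, and the 7 calls held except that of vDG. In vDG it did not pass with upper-quartile scaling (0.48, edgeR adjusted p 0.0546), with limma on the authors' log2 values (0.38, 0.057), without the library absent from those tables (0.41, 0.0844) and without the libraries with Gabra6 above 100 CPM (0.51, 0.0543); over fits leaving out 1 library the change ran from 0.41 to 0.55, and in the fits where it failed from 0.41 to 0.50. The 8 ratios to Gja1 stayed past the threshold in every alternative with a test.

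The number of called genes moved by over 1.5 times with at least 10 counts required in every library, where fewer genes are tested. As a percentage of the genes tested in the reported fits it was 3.39 instead of 5.62 in AMY, 3.17 instead of 6.18 in CER, 2.70 instead of 4.68 in dCA1, 2.20 instead of 3.70 in dDG, 3.75 instead of 6.14 in PFC, 3.15 instead of 5.63 in PVN, 3.10 instead of 5.45 in vCA1 and 2.08 instead of 3.93 in vDG. Aldh1l1 was not tested under that filter. It was 6.35 in dDG with the replicate block (543 genes instead of 316) and 3.06 in vCA1 with the dentate level (279 instead of 497); the cause was not tested.

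Signs near 0 turned in several fits. Glul in dCA1 was 0.0150 with the replicate block, 0.0476 with limma on the authors' values and 0.0393 without vehicle 4, the library absent from those tables; over fits leaving out 1 library it ran from -0.141 to 0.0393. Aldoc was 0.0114 in vCA1 with the dentate level and 0.00915 in vDG with RIN, and in vDG fits leaving out 1 library it ran from -0.0711 to 0.0188, above 0 in 4 of 30. S100b was -0.0150 in PVN with the replicate block and 0.0255 in vCA1 without the library rich in Gabra6. In vDG, S100b was -0.00286 with DESeq2 and -0.0663 without the absent library, and ran from -0.0762 to 0.197 over fits leaving out 1 library, below 0 in 15 of 30. Fgfr3 was -0.0152 in CER with limma on the authors' values and -0.0287 without the absent library, and -0.00842 in PFC with upper-quartile scaling. The ratio of Gjb6 to Aldh1l1 was -0.0321 in dCA1 with a prior count of 0.5, -0.0384 without the absent library, -0.0361 in PVN from group means, and -0.00341 in PVN without dexamethasone 4. None of these passed, and the cause was not tested.

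With the replicate block, Gjb6 in dDG was 0.35 (edgeR adjusted p 0.0579) and its 7 calls held; the calls of the 8 genes that the block changed stand beside their results. Of the genes named, Fgfr1 was also called in CER, Fgfr2, S100a16 and Ppp1r3c in dDG, Ppp1r3c, Htra1 and Pfkfb3 in dCA1, Prkca in PFC, and Gjc3 and Pfkfb3 in vDG. Of the further astrocyte markers 3 rose and 5 fell in some region, of the reactive astrocyte genes 3 rose, and of the microglial markers 3 fell. With pairing, the ratio of Gjb6 to Gja1 passed in 8 of 8 regions, and that to Aldh1l1 was -0.0403 in dCA1 and -0.0174 in PVN. The replicate block of animals left the region-by-treatment test of the 8 genes without a call.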
